A study of Mus musculus with 12 samples.

Results

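Proteasome subunits and protein-folding chaperones were followed across 4 kinds of mouse cells on 12 one-colour Applied Biosystems whole-genome arrays. The members were the probes whose single gene symbol in the platform annotation began with Psma, Psmb, Psmc, Psmd, Psme, Hspa, Hspb, Hspd, Hspe, Hsph, Hsp90, Dnaja, Dnajb or Dnajc, or was Tcp1 or Cct with a number. The rule matched 101 of the 33012 probes. The Dnajc27 probe was left out, which left 100 probes of 97 genes, among 13840 genes with a probe of their own. Hspd1 had 3 probes and Dnajc5 had 2, and all other members had a single probe. The 4 groups had 3 arrays each. rEpiES are reprogrammed ES-like cells, sampled after 24 passages (rEpiES passage 24) and after 4 (rEpiES passage 4). They were grown from epiblast of E5.5-E7.5 embryos in ES medium with 20% fetal bovine serum and 1000 units/ml of LIF, on feeders of mitomycin-treated mouse embryonic fibroblasts. Picked colonies in which GFP had come on were passaged further, so the lines descend from selected colonies, and the labels do not say that feeders were removed before extraction. cEpi is cultured epiblast dissected from embryos of the same days, with no medium or passage given. ES cells are the control embryonic stem cells, likewise with no passage or medium given. By the labels, embryo mothers were of 129/sv or ROSA 129/Sv background, and the fathers carried Oct4-deltaPE-EGFP, a transgene that reads the distal enhancer of Oct4, which all 4 groups may share. No label says that 3 arrays stand for 3 cultures or lines. The p-values therefore measure only the spread between these arrays, which may be technical.

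The proteasome is the protease that degrades proteins tagged with ubiquitin. Its core particle is a barrel of alpha and beta subunits with the active sites on beta subunits, and its regulatory particle of Psmc ATPases and Psmd subunits binds, unfolds and feeds the substrate. Interferon replaces the active core subunits by immune forms and adds the Psme1 and Psme2 activator. HSP70 chaperones bind unfolded chains with the help of J proteins, which stimulate their ATPase, and of HSP110 proteins, which exchange their nucleotide. CCT, made of Tcp1 and the Cct subunits, folds actin and tubulin in a closed ring in the cytosol, and Hspd1 with its lid Hspe1 is the folding chamber of mitochondria. Hspa5 and Hsp90b1 are the HSP70 and HSP90 of the endoplasmic reticulum.

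Of the 100 member probes, 82 were tested, meaning detected at a signal-to-noise ratio of 3 or more on all 3 arrays of at least 1 group. In all 71 were detected on all 12 arrays, and 8 were detected on none. Among the 18 untested members were Psmb11, Dnaja1, Dnajb5, Hspa1l, Hspa12a and Cct6b. Psma1, Psmb6, Psmb9, Psme1, Psmd1, Psmd11, Psmd14, Hspa1a, Hspa1b, Hspa8, Hspb1, Hsp90aa1 and Hsp90ab1 were not analysed here, as no probe was named for them. Levels are the authors' quantile-normalised log2 values, and 1 unit is 2-fold. Levels of different probes cannot be set against each other.

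The arrays detected 14422 to 15637 probes in rEpiES passage 24, between 14329 and 15034 in rEpiES passage 4, between 15726 and 16537 in cEpi and between 12061 and 13827 in ES. Within a group, the median SD of the tested members was 0.07 in rEpiES passage 24, 0.05 in rEpiES passage 4, 0.06 in cEpi and 0.15 in ES. All 7 named markers of naive pluripotency tested were lower in cEpi than in ES, and 5 of 7 post-implantation epiblast markers were higher. All 12 named fibroblast markers were higher in cEpi than in ES too. Their summed linear level was between 359642 and 391867 in rEpiES passage 24, between 717216 and 756000 in rEpiES passage 4, between 2553792 and 2665182 in cEpi and between 581910 and 876344 in ES, and all 12 were detected on all 3 cEpi arrays. Endoderm markers moved with them, between 3334 and 4272 in rEpiES passage 24, between 8157 and 9950 in rEpiES passage 4, between 131360 and 142338 in cEpi and between 25843 and 31749 in ES, with Afp on no cEpi array. Their part in the results below was not tested. In these bulk samples, fewer cells of a type and less RNA per cell cannot be told apart.

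Members were called in both directions in each of the 6 comparisons. Between rEpiES passage 24 and cEpi, 33 of 82 tested members were called higher and 21 lower at an adjusted p under 0.05 in limma, against 33.3% and 32.9% of all 15235 tested probes. Between rEpiES passage 4 and cEpi the counts were 23 higher and 21 lower, against 28.2% and 28.1% of all tested probes. For rEpiES passage 24 against ES they were 26 higher and 30 lower (30.6% and 29% of all), and for rEpiES passage 4 against ES 19 higher and 33 lower (29.3% and 26% of all). For cEpi against ES they were 31 higher and 33 lower, against 36.6% and 29.6% of all. Between rEpiES passage 24 and passage 4, 25 members were called higher and 9 lower, against 17.2% and 18.9% of all. That last count of 25 became 14, 15 and 15 without passage 4 replicate 1, 2 and 3 in turn.

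Fitted over only the 9595 probes detected on all 12 arrays, of which 71 are members, 36 members were called higher and 14 lower for rEpiES passage 24 minus cEpi (41.2% and 35% of all 9595), and 24 and 16 for rEpiES passage 4 minus cEpi (38.2% and 31.4%). The counts were 27 and 29 for rEpiES passage 24 minus ES (31.8% and 40.8%), 18 and 33 for rEpiES passage 4 minus ES (31% and 37.5%), 24 and 33 for cEpi minus ES (34.3% and 41.8%), and 29 and 8 for rEpiES passage 24 minus passage 4 (24.8% and 26.7%).

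Direction depended on the scaling. With arrays centred on their medians, the median change of all tested probes became 0.69 for cEpi minus ES, in place of 0.15, and -0.25 for rEpiES passage 4 minus cEpi, in place of -0.02. Of the members, 48 were then higher and 8 lower in cEpi than in ES. A call is said to hold below where limma also made it, in the same direction, under both other scalings and without each of the 12 arrays. Calls that held numbered 10 higher and 19 lower for rEpiES passage 24 minus cEpi (16.9% and 28.1% of all tested probes), 6 and 15 for rEpiES passage 4 minus cEpi (10.1% and 22.4%), and 23 and 5 for cEpi minus ES (30.6% and 9.18%). They numbered 24 and 4 for rEpiES passage 24 minus ES (24.9% and 11.8%), 18 and 11 for rEpiES passage 4 minus ES (23.1% and 8.73%), and 6 and 2 for rEpiES passage 24 minus passage 4 (7.31% and 7.96%). The deposited files came in 2 layouts, 1 for rEpiES passage 4 and cEpi and 1 for rEpiES passage 24 and ES. In the 4 comparisons that cross them, layout and group cannot be told apart.

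**Figure D1:**
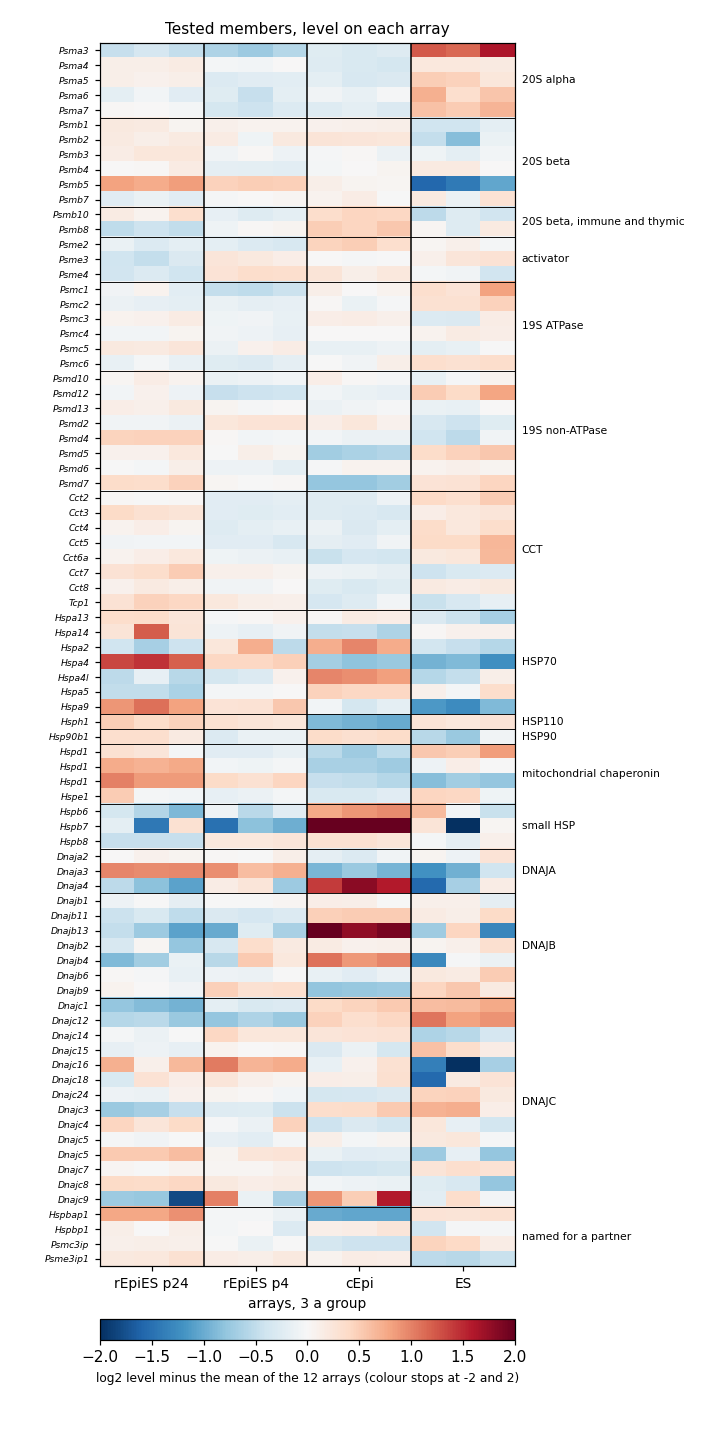
Heat map of the 82 tested member probes (rows, by machine) on the 12 arrays (columns, 3 a group), coloured by the log2 level minus the mean of that probe over the 12 arrays. Psma3 stood highest and Psmb5 lowest on the ES arrays, Hspb7 and Dnajb13 highest on the cEpi arrays, and Hspa4 highest on the rEpiES passage 24 arrays.

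Proteasome genes mostly differed between groups by small amounts. Among the 25 tested Psma, Psmb, Psmc and Psmd genes, leaving out the immune forms, the median distance between the highest and the lowest group mean was 0.56 log2 units. These are taken by symbol and include the assembly chaperone Psmd5. It was 0.77 for all 2733 probes detected on all 12 arrays with a mean level over 15, though members such as Psmd10 lay below 15. Differences were still called: of the 25, 5 were higher and 14 lower in rEpiES passage 4 than in ES (29.3% and 26% of all tested probes). Against ES, 8 were higher and 10 lower in rEpiES passage 24 (30.6% and 29%), and 5 and 11 in cEpi (36.6% and 29.6%). In rEpiES passage 24 against cEpi, 10 were higher and 2 lower (33.3% and 32.9%). The median distance between the highest and the lowest group mean was 0.43 for the 6 Psmc ATPases. It was 0.40 for the 6 constitutive beta subunits, of which Psmb5 reached 2.14, and 0.83 for the 5 alpha subunits. Psmc3, Psmc4, Psmd6, Psmd10 and Psmd13 differed by at most 0.27 between any pair of groups.

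The alpha subunits form the outer rings of the core and its gate. All 5 were called lower in rEpiES passage 4 than in ES, 4 of 5 in rEpiES passage 24 (all but Psma4, -0.07), and all 5 in cEpi, against 26%, 29% and 29.6% of all tested probes. Psma3 read 14.89, 15.02 and 14.88 in rEpiES passage 24, 14.74, 14.64 and 14.78 in rEpiES passage 4, 15.12, 15.05 and 15.09 in cEpi, and 16.59, 16.50 and 16.97 in ES. The 3 ES arrays lay above all 9 others. Psma3 was lower by 1.97 ± 0.11 log2 units (SE, adjusted p = 7.34e-07) in rEpiES passage 4 than in ES, a 3.92-fold difference, and by 1.76 and 1.60 in rEpiES passage 24 and cEpi. All 3 of these calls held. Psma7 averaged 17.76 ± 0.03 in rEpiES passage 24, 17.42 ± 0.07 in rEpiES passage 4, 17.52 ± 0.05 in cEpi and 18.36 ± 0.09 in ES (SD, n = 3 each). With median centring, cEpi minus ES was called lower for 2 of the 5 alpha subunits, and with no step between arrays for 1, which was Psma3, while Psma4 turned to 0.087. Under either of these scalings, 4 of 5 were called lower in rEpiES passage 4 than in ES, with Psma4 at 0.029 with median centring, and 1 of 5 in rEpiES passage 24, with Psma5 at 0.10 with median centring and 0.043 with no step.

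Of the 6 constitutive beta subunits, 4 were called higher and 1 lower in rEpiES passage 24 than in ES (30.6% and 29% of all tested probes), 3 higher and 1 lower in rEpiES passage 4 than in ES (29.3% and 26%), and 3 higher and 0 lower in cEpi than in ES (36.6% and 29.6%). The lower call at passage 24, Psmb7, turned to 0.081 with median centring and 0.021 with no step, and that at passage 4, Psmb4, to 0.015 with median centring. Psmb5 carries the chymotrypsin-like active site. Its level was 15.39, 15.34 and 15.42 in rEpiES passage 24, 15.05, 15.08 and 15.06 in rEpiES passage 4, 14.70, 14.64 and 14.62 in cEpi, and 13.01, 13.16 and 13.55 in ES. The 4 groups did not overlap, and ES was lowest. Psmb5 was 4.41-fold higher in rEpiES passage 24 than in ES (2.14 ± 0.12 log2 units, adjusted p = 2.67e-07), and higher by 1.82 in rEpiES passage 4 and by 1.42 in cEpi, and these calls held. Psmb1 and Psmb2, beta subunits without a protease site, were also higher than in ES in all 3 groups, by 0.41 to 0.73, and these calls held. Psmb4 and Psmb7 averaged 18.46 and 17.49 in rEpiES passage 24, 18.20 and 17.69 in rEpiES passage 4, 18.41 and 17.75 in cEpi, and 18.52 and 17.79 in ES.

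Among the Psmd genes, Psmd7 and Psmd5 set cEpi apart. Psmd7, a lid subunit that pairs with the deubiquitinase Psmd14, read 17.63, 17.61 and 17.72 in rEpiES passage 24, 17.30, 17.26 and 17.28 in rEpiES passage 4, 16.49, 16.48 and 16.56 in cEpi, and 17.53, 17.55 and 17.70 in ES. The cEpi arrays lay below all others. The level was higher by 1.14 ± 0.06 in rEpiES passage 24 than in cEpi (adjusted p = 1.78e-07) and lower by 1.08 ± 0.06 in cEpi than in ES, and both calls held. Psmd5, an assembly chaperone of the regulatory particle, averaged 14.78 ± 0.07 in rEpiES passage 24, 14.71 ± 0.06 in rEpiES passage 4, 14.02 ± 0.05 in cEpi and 15.12 ± 0.08 in ES. Its difference between cEpi and ES was -1.09 and was not called with no step between arrays. Psmd4, a ubiquitin receptor, was highest in rEpiES passage 24 at 16.21 ± 0.01, against 15.74 ± 0.04 in rEpiES passage 4, 15.66 ± 0.04 in cEpi and 15.43 ± 0.23 in ES. Psmd2 was higher than in ES by 0.24 in rEpiES passage 24, 0.59 in rEpiES passage 4 and 0.47 in cEpi, and these calls held. Psmc1 was lowest in rEpiES passage 4 and highest in ES, with means of 16.15 and 17.09.

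The 3 interferon-inducible members, Psmb8, Psmb10 and Psme2, were all higher in cEpi than in ES and lower in rEpiES passage 4 than in cEpi, and these 6 calls held. Of all tested probes, 36.6% and 28.1% were called in these directions, and for 30.6% and 22.4% the calls held. Psmb8 read 12.32, 12.42 and 12.34 in rEpiES passage 24, 12.75, 12.86 and 12.88 in rEpiES passage 4, 13.33, 13.26 and 13.37 in cEpi, and 12.87, 12.58 and 13.01 in ES, where 1 of 3 arrays detected it. Psmb8 was lower by 0.96 ± 0.10 in rEpiES passage 24 than in cEpi (adjusted p = 1.95e-05). Psme2 read 15.42, 15.27 and 15.36 in rEpiES passage 24, 15.35, 15.28 and 15.24 in rEpiES passage 4, 16.00, 16.04 and 15.88 in cEpi, and 15.60, 15.65 and 15.52 in ES. The 3 cEpi arrays were highest for each of these genes. Psmb10 was higher at passage 24 than at passage 4: it averaged 13.71 ± 0.14 in rEpiES passage 24, 13.31 ± 0.04 in rEpiES passage 4, 13.92 ± 0.05 in cEpi and 13.13 ± 0.14 in ES. Of 7 tested antigen-processing and interferon genes, 1 was called higher and 2 lower in rEpiES passage 24 than in cEpi (33.3% and 32.9% of all tested probes), and 4 higher and 2 lower in cEpi than in ES (36.6% and 29.6%; median 0.81, against 0.15 for all). B2m, the light chain of MHC class I, averaged 13.99 in rEpiES passage 24, 15.10 in rEpiES passage 4, 16.50 in cEpi and 15.18 in ES, while Irf1 averaged 14.41, 14.08, 13.63 and 14.46 in the same order. The summed fibroblast markers given above were also highest in cEpi.

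The other activators, Psme3 and Psme4, were both called lower in rEpiES passage 24 than in passage 4. Psme4, the nuclear activator known for histone degradation, read 14.53, 14.63 and 14.51 in rEpiES passage 24, 15.19, 15.25 and 15.24 in rEpiES passage 4, 15.16, 15.03 and 15.12 in cEpi, and 14.87, 14.84 and 14.53 in ES. rEpiES passage 24 arrays lay below those of passage 4 and cEpi and overlapped with ES. The difference from passage 4 was -0.67 ± 0.09 (adjusted p = 0.000388) and held. Psme3, the other nuclear activator, averaged 15.41 ± 0.09 in rEpiES passage 24, 16.00 ± 0.06 in rEpiES passage 4, 15.79 ± 0.02 in cEpi and 16.01 ± 0.10 in ES.

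**Figure D2:**
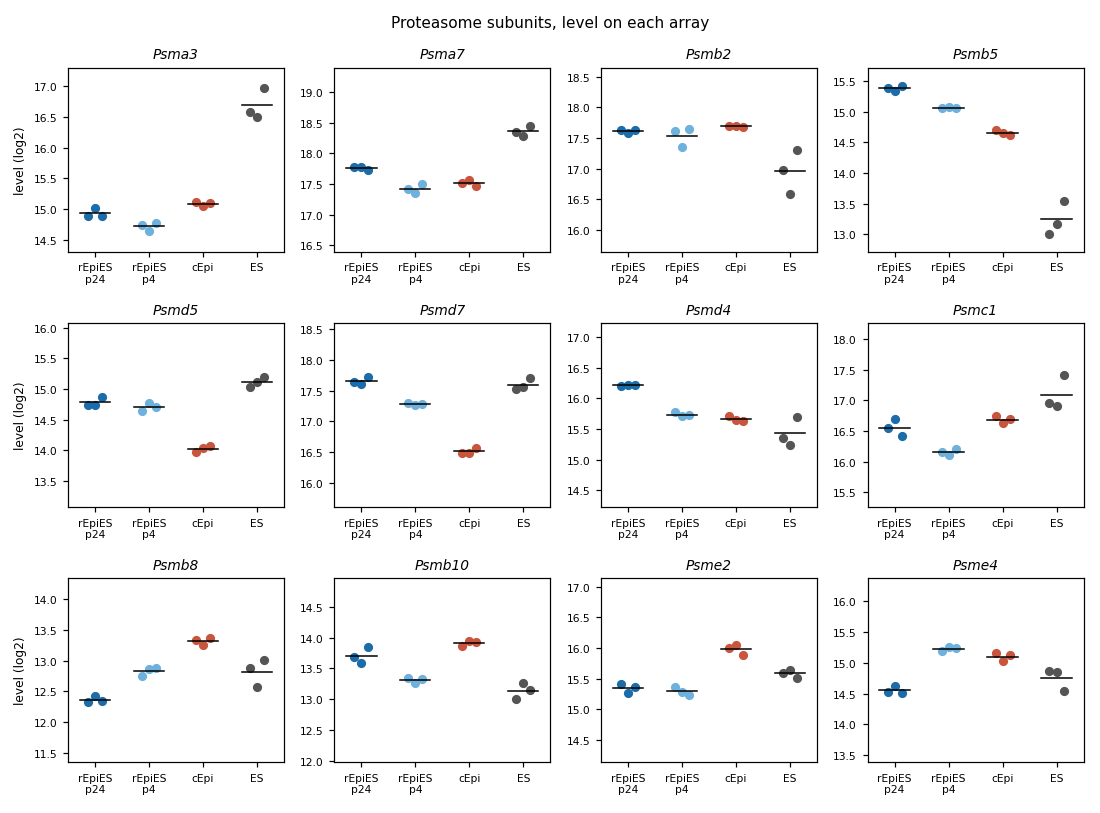
Level of 12 proteasome genes on each array (points, log2) with the group mean (bar), rEpiES passage 24, rEpiES passage 4, cEpi and ES from left to right, each panel spanning at least 3 log2 units. Psma3 was highest and Psmb5 lowest in ES, Psmd5 and Psmd7 were lowest in cEpi, and Psmb8 and Psme2 were highest in cEpi.

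The CCT subunits differed by small amounts. All 8 tested subunits were detected on all 12 arrays. Between rEpiES passage 24 and cEpi, 7 of the 8 were called higher and none lower (33.3% and 32.9% of all tested probes). Their median was 0.45 log2 units, against 0.01 for all tested probes. With median centring 5 were called higher, and with no step between arrays 0 were called (median 0.19, against -0.37 for all probes). Of all 15235 tested probes, 3601 and 2744 were called higher under these 2 scalings. Cct3 read 20.42, 20.33 and 20.29 in rEpiES passage 24, 19.80, 19.78 and 19.82 in rEpiES passage 4, 19.77, 19.75 and 19.71 in cEpi, and 20.16, 20.24 and 20.27 in ES. Both low groups lay apart from both high groups. Cct2, Cct4, Cct5, Cct6a and Cct8 were likewise called lower in cEpi than in ES, by 0.44 to 0.75 (29.6% of all tested probes). But with median centring 0 of the 8 subunits were called lower and 2 higher, against 1833 and 8514 of all 15235 tested probes. Cct7 and Tcp1 differed from them: Tcp1 averaged 17.90 ± 0.09 in rEpiES passage 24, 17.66 ± 0.06 in rEpiES passage 4, 17.30 ± 0.14 in cEpi and 17.20 ± 0.14 in ES. Cct7 and Tcp1 were higher in rEpiES passage 24 than in ES by 0.71 and 0.70, calls that held. Cct6b and Cct8l1 were detected on no array.

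**Figure D3:**
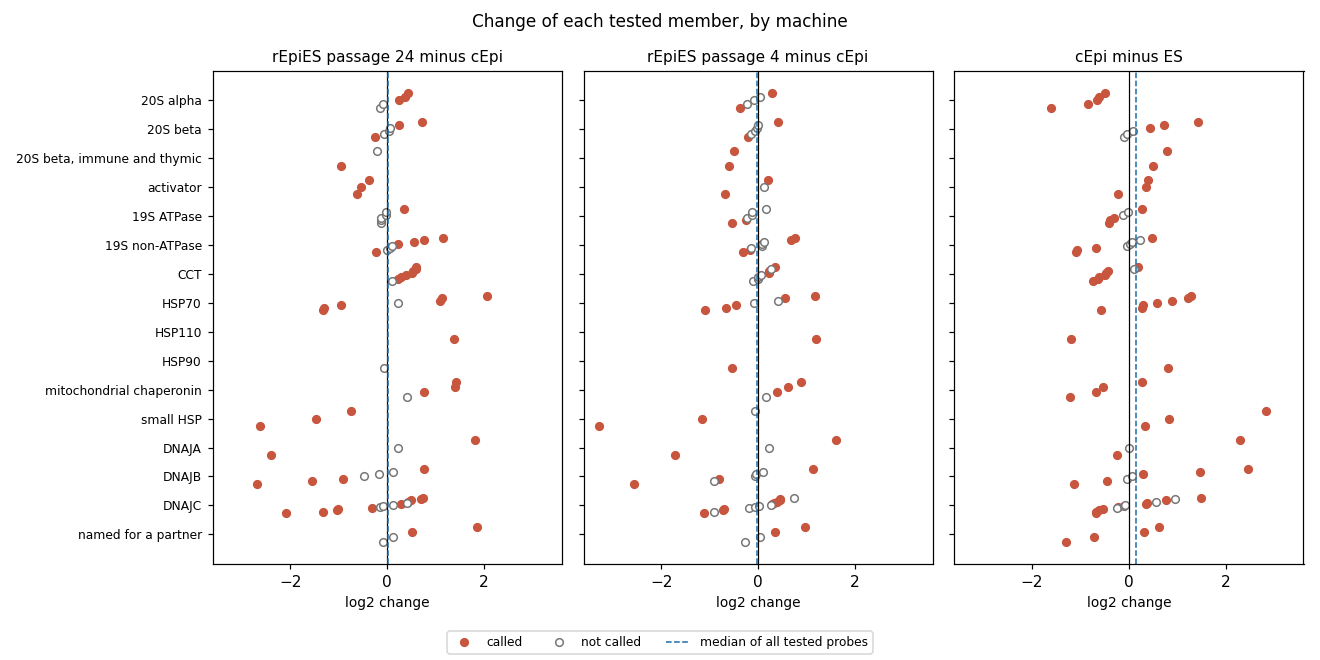
Log2 change of each of the 82 tested members (points, filled where called) in 3 comparisons, by machine, with the median of all tested probes as a dashed line. CCT subunits lie right of 0 for rEpiES passage 24 minus cEpi (0 of 8 called with no step between arrays), and alpha subunits left of 0 for cEpi minus ES under this scaling (2 of 5 called with median centring). Hspb6 and Hspb7 among the small HSPs were tested through cEpi alone.

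Among cytosolic chaperones, Hspa4 and Hsph1, HSP110-type nucleotide exchange factors, were much higher in reprogrammed cells than in cEpi, while Hspa4l went the other way. Hspa4l averaged 10.92 in rEpiES passage 24, 11.16 in rEpiES passage 4, 12.24 in cEpi and 11.02 in ES. Its change from cEpi was -1.32 ± 0.19 at passage 24 (adjusted p = 0.000169 in limma) and -1.09 ± 0.19 at passage 4, and both calls held. Hspa4 read 16.74, 16.86 and 16.60 in rEpiES passage 24, 15.82, 15.82 and 15.88 in rEpiES passage 4, 14.73, 14.60 and 14.67 in cEpi, and 14.46, 14.53 and 14.19 in ES. The groups did not overlap. Hspa4 was 4.19-fold higher in rEpiES passage 24 than in cEpi (2.07 ± 0.10, adjusted p = 5.49e-08), 5.07-fold higher than in ES, and higher by 0.89 ± 0.10 than in passage 4 (adjusted p = 0.000101), and these calls held. Its difference of 0.27 between cEpi and ES was called (adjusted p = 0.0324) and was not called at 0.24 without cEpi replicate 1, at 0.27 without cEpi replicate 3 and at 0.17 without ES replicate 3. Hsph1 read 15.66, 15.53 and 15.62 in rEpiES passage 24, 15.47, 15.42 and 15.40 in rEpiES passage 4, 14.29, 14.22 and 14.17 in cEpi, and 15.43, 15.38 and 15.45 in ES. Here cEpi alone was low, by 1.38 ± 0.06 against rEpiES passage 24 (adjusted p = 2.97e-08) and by 1.20 ± 0.06 against ES, and the ranges of rEpiES passage 4 and ES overlapped. Hspa14, a ribosome-bound HSP70, read 16.87, 17.83 and 16.87 in rEpiES passage 24, 16.52, 16.45 and 16.55 in rEpiES passage 4, 16.14, 16.15 and 16.00 in cEpi, and 16.65, 16.70 and 16.70 in ES, so that 1 array set its mean at passage 24. Dnajb1, the main cytosolic J protein of the stress response, averaged 14.21, 14.31, 14.38 and 14.31 in the same order and was called in none of the 6 comparisons. Hsf2, a heat-shock transcription factor, was lower in cEpi: it averaged 11.83 in rEpiES passage 24, 12.31 in rEpiES passage 4, 10.53 in cEpi and 12.17 in ES (cEpi minus ES -1.65, adjusted p = 4.15e-05).

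A search of promoter windows from RefSeq (250 bases before and 50 after the annotated start, build GRCm38.p6) covered 83 of the 97 member genes. The heat-shock element of 3 units (GAA, any 2 bases, TTC, any 2 bases, GAA, searched on both strands) lay in the windows of 4 member genes, Hspd1, Hspe1, Hsph1 and Dnajb6. That is 4.82% of the member genes, against 0.662% of 27025 genes. A match describes letters and is no evidence of binding. The stretches are shown because they belong to Hsph1 and to the mitochondrial pair described next, with Dnajb6 as the remaining gene that carried the element. Dnajb6 was called lower than ES in each other group, with -0.33 in rEpiES passage 24, -0.36 in rEpiES passage 4 and -0.45 in cEpi. None of these calls held under both other scalings and without each array. Capitals mark the element. Hspe1 and Hspd1 lie head to head, and a window of Hspd1 on the minus strand shares 285 bases with that of Hspe1, so both contain the same capitals, which hold 2 overlapping matches. The Hspe1 sequence is the 250 bases before its start (chr1:55087898-55088147, plus strand). Dnajb6 is given likewise (chr5:29735648-29735897, plus strand), and Hsph1 by a short piece past its start (chr5:149636287-149636306, minus strand).
Hspe1: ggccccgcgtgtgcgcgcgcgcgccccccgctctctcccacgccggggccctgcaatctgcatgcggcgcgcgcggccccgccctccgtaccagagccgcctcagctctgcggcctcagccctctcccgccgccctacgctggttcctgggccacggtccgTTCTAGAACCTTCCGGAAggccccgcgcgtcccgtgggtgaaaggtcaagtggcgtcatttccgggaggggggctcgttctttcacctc
Dnajb6: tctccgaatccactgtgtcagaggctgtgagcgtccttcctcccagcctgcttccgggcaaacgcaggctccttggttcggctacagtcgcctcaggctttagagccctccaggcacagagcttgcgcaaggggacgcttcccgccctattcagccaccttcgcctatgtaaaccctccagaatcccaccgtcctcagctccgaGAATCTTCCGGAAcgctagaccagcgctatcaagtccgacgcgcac
Hsph1: tgcagaTTCTGGAAAGTTCt

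Hspd1, Hspa9 and Dnaja3 of the mitochondrial chaperones were called higher in reprogrammed cells of both passages than in cEpi, and Hspe1 in neither. The 7 probes of Hspd1, Hspe1, Hspa9, Dnaja3 and Dnajc15, a group drawn up after their values were known, gave 6 calls higher and 0 lower in rEpiES passage 4 than in cEpi, and 5 higher and 0 lower in rEpiES passage 24 than in cEpi. Of all tested probes 28.2% and 33.3% were called higher in these comparisons, and 3 of the 7 probes belong to Hspd1. Dnajc15 was 0.29 higher at passage 4, turned to -0.16 with no step between arrays, and was not called at passage 24 (0.11, adjusted p = 0.368). The passage 4 count became 3 and 2 under the other scalings, and the passage 24 count stayed at 5. At passage 4 the calls of Dnaja3 and of Hspd1 probe 902369 held, and those of Hspa9 and the other Hspd1 probes did not. All 3 Hspd1 probes ranked rEpiES passage 24 over passage 4 over cEpi without overlap. The probe 902369 read 17.77, 17.62 and 17.62 in rEpiES passage 24, 17.15, 17.06 and 17.19 in rEpiES passage 4, 16.31, 16.27 and 16.19 in cEpi, and 15.92, 16.07 and 16.00 in ES. The probe 902241 averaged 18.97 ± 0.04 in rEpiES passage 24, 18.17 ± 0.03 in rEpiES passage 4, 17.57 ± 0.04 in cEpi and 18.24 ± 0.12 in ES. The third, 892092, averaged 19.03 ± 0.18 in rEpiES passage 24, 18.66 ± 0.04 in rEpiES passage 4, 18.27 ± 0.11 in cEpi and 19.49 ± 0.19 in ES. Between rEpiES passage 24 and cEpi they changed by 1.41, 1.40 and 0.76, and these calls held. Against ES they disagreed: cEpi minus ES was 0.26 ± 0.07, -0.68 ± 0.07 and -1.21 ± 0.12, each called. The calls of 902369 and 892092 held, and that of 902241 did not. Hspe1, the lid, read 19.98, 19.43 and 19.43 in rEpiES passage 24, 19.31, 19.36 and 19.44 in rEpiES passage 4, 19.17, 19.18 and 19.26 in cEpi, and 19.92, 19.90 and 19.39 in ES. Its change between rEpiES passage 24 and cEpi was 0.41 ± 0.17 (adjusted p = 0.0581).

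Hspa9, the mitochondrial HSP70, was lowest in ES cells. It read 18.30, 18.52 and 18.22 in rEpiES passage 24, 17.69, 17.70 and 17.95 in rEpiES passage 4, 17.35, 17.07 and 17.23 in cEpi, and 16.27, 16.17 and 16.54 in ES, with no overlap between groups. It was 4.05-fold higher in rEpiES passage 24 than in ES (2.02 ± 0.13, adjusted p = 8.33e-07) and higher by 0.89 ± 0.13 in cEpi than in ES. Dnaja3, the J protein that works with Hspa9, split the 4 groups in pairs. It read 14.10, 14.07 and 14.09 in rEpiES passage 24, 14.06, 13.74 and 13.83 in rEpiES passage 4, 12.22, 12.38 and 12.19 in cEpi, and 11.92, 12.16 and 12.72 in ES. The reprogrammed cells lay above cEpi and ES, by 1.61 ± 0.18 at passage 4 over cEpi (3.06-fold, adjusted p = 3.31e-05), and cEpi and ES overlapped, with a difference of 0.00 ± 0.18. Trap1, the mitochondrial HSP90, which is no member by its symbol, averaged 15.72 ± 0.01 in rEpiES passage 24, 15.22 ± 0.05 in rEpiES passage 4, 14.11 ± 0.05 in cEpi and 14.77 ± 0.19 in ES. Grpel1, the exchange factor of Hspa9, did not follow: it averaged 9.39 ± 0.86 in rEpiES passage 24, 10.09 ± 0.25 in rEpiES passage 4, 11.44 ± 0.18 in cEpi and 9.87 ± 1.26 in ES.

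Hspa5, Dnajb11, Dnajc1 and Dnajc3 of the endoplasmic reticulum were called lower in reprogrammed cells of both passages than in cEpi. Of 7 probes of this compartment, a group also drawn up after their values were known, 1 was called higher and 4 lower in rEpiES passage 24 than in cEpi, and 1 higher and 5 lower in rEpiES passage 4 than in cEpi, where 32.9% and 28.1% of all tested probes were called lower. The ER stress response element (CCAAT, any 9 bases, CCACG, searched on both strands) lay in the windows of 3 member genes, Hspa5, Hsp90b1 and Dnajc3, which is 3.61% of the member genes with a window, against 0.137% of all genes. The related second element (ATTGG, any 1 base, CCACG) lay in that of Dnajb11 alone (1.2% of the member genes, 0.0444% of all genes). These windows are shown because the 4 genes belong to 1 compartment. Capitals mark the element. The sequences are the 250 bases before the start of Hspa5 (chr2:34771840-34772089, plus strand), Hsp90b1 (chr10:86705445-86705694, minus strand, with 2 matches) and Dnajc3 (chr14:118937682-118937931, plus strand), and a short piece past the start of Dnajb11 (chr16:22857846-22857868, plus strand).
Hspa5: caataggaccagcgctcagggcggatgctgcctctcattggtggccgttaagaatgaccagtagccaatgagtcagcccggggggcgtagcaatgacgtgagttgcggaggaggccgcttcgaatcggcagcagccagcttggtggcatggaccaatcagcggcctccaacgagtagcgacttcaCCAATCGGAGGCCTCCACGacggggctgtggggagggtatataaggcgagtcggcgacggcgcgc
Hsp90b1: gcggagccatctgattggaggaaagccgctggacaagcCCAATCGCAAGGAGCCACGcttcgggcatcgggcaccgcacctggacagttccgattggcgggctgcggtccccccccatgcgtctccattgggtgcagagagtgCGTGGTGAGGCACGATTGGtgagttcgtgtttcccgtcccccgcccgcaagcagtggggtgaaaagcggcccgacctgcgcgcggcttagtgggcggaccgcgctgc
Dnajc3: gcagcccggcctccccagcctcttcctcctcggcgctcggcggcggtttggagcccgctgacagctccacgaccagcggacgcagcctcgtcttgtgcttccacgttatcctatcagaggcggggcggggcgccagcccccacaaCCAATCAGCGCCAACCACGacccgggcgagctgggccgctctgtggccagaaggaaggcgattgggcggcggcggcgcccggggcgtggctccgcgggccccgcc
Dnajb11: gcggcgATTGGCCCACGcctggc

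Hspa5, the HSP70 of the endoplasmic reticulum and regulator of its stress sensors, read 17.83, 17.83 and 17.69 in rEpiES passage 24, 18.28, 18.28 and 18.32 in rEpiES passage 4, 18.78, 18.73 and 18.73 in cEpi, and 18.42, 18.28 and 18.66 in ES. The groups were ordered from cEpi down to rEpiES passage 24, with ES overlapping passage 4. Hspa5 was lower by 0.96 ± 0.09 in rEpiES passage 24 than in cEpi (1.95-fold, adjusted p = 8.86e-06) and by 0.45 ± 0.09 in rEpiES passage 4, and both calls held. Dnajb11, one of its J proteins, read 16.05, 16.18 and 15.98 in rEpiES passage 24, 16.20, 16.15 and 16.22 in rEpiES passage 4, 16.96, 16.99 and 17.00 in cEpi, and 16.65, 16.60 and 16.86 in ES. Dnajc1, a membrane-anchored J protein, read 12.43, 12.34 and 12.26 in rEpiES passage 24, 13.01, 12.91 and 12.94 in rEpiES passage 4, 13.59, 13.65 and 13.73 in cEpi, and 13.83, 13.84 and 13.96 in ES. Both were lower in reprogrammed cells of either passage than in cEpi and ES, without overlap. These calls held, except those of Dnajb11 against ES. Dnajc1 was 2.91-fold lower in rEpiES passage 24 than in ES (-1.54 ± 0.07, adjusted p = 1.06e-07). Dnajc3, which also restrains the kinase PERK, averaged 12.28 ± 0.14 in rEpiES passage 24, 12.59 ± 0.10 in rEpiES passage 4, 13.32 ± 0.10 in cEpi and 13.42 ± 0.33 in ES. Its falls against cEpi, by 1.04 and 0.72, held.

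Hsp90b1 and Dnajb9 did not keep to that order. Hsp90b1 read 16.57, 16.58 and 16.42 in rEpiES passage 24, 15.96, 16.11 and 16.11 in rEpiES passage 4, 16.62, 16.56 and 16.61 in cEpi, and 15.68, 15.50 and 16.17 in ES. It was lower in rEpiES passage 4 than in cEpi by 0.53 ± 0.15 (adjusted p = 0.0107), while rEpiES passage 24 and cEpi overlapped. Dnajb9, which recruits Hspa5 to the sensor IRE1, was instead lowest in cEpi. It read 11.58, 11.53 and 11.44 in rEpiES passage 24, 11.99, 11.82 and 11.85 in rEpiES passage 4, 10.73, 10.77 and 10.79 in cEpi, and 11.95, 12.06 and 11.69 in ES. The change was 1.12 ± 0.10 between rEpiES passage 4 and cEpi (adjusted p = 5.91e-06), and held. Hspa13 averaged 12.48 in rEpiES passage 24, 12.18 in rEpiES passage 4, 12.26 in cEpi and 11.69 in ES. Other folding and stress genes of the endoplasmic reticulum were counted from a list of 20 genes, of which 18 were tested. Of these, 1 was called higher and 13 lower in rEpiES passage 4 than in cEpi (28.2% and 28.1% of all tested probes). In rEpiES passage 24 against cEpi 1 was higher and 12 lower (33.3% and 32.9%). In cEpi against ES 13 were higher and 2 lower (36.6% and 29.6%). The median changes were -0.48, -0.56 and 0.55, against -0.02, 0.01 and 0.15 for all tested probes. P4hb, a protein disulfide isomerase, averaged 17.48 ± 0.06 in rEpiES passage 24, 17.36 ± 0.07 in rEpiES passage 4, 18.42 ± 0.06 in cEpi and 18.05 ± 0.09 in ES. Manf, a secreted stress-induced factor, averaged 16.37 ± 0.07 in rEpiES passage 24, 16.27 ± 0.05 in rEpiES passage 4, 17.31 ± 0.10 in cEpi and 15.99 ± 0.02 in ES. Collagen genes of the fibroblast list, whose products fold in this compartment, were among the markers highest in cEpi, and their part in these changes was not tested.

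**Figure D4:**
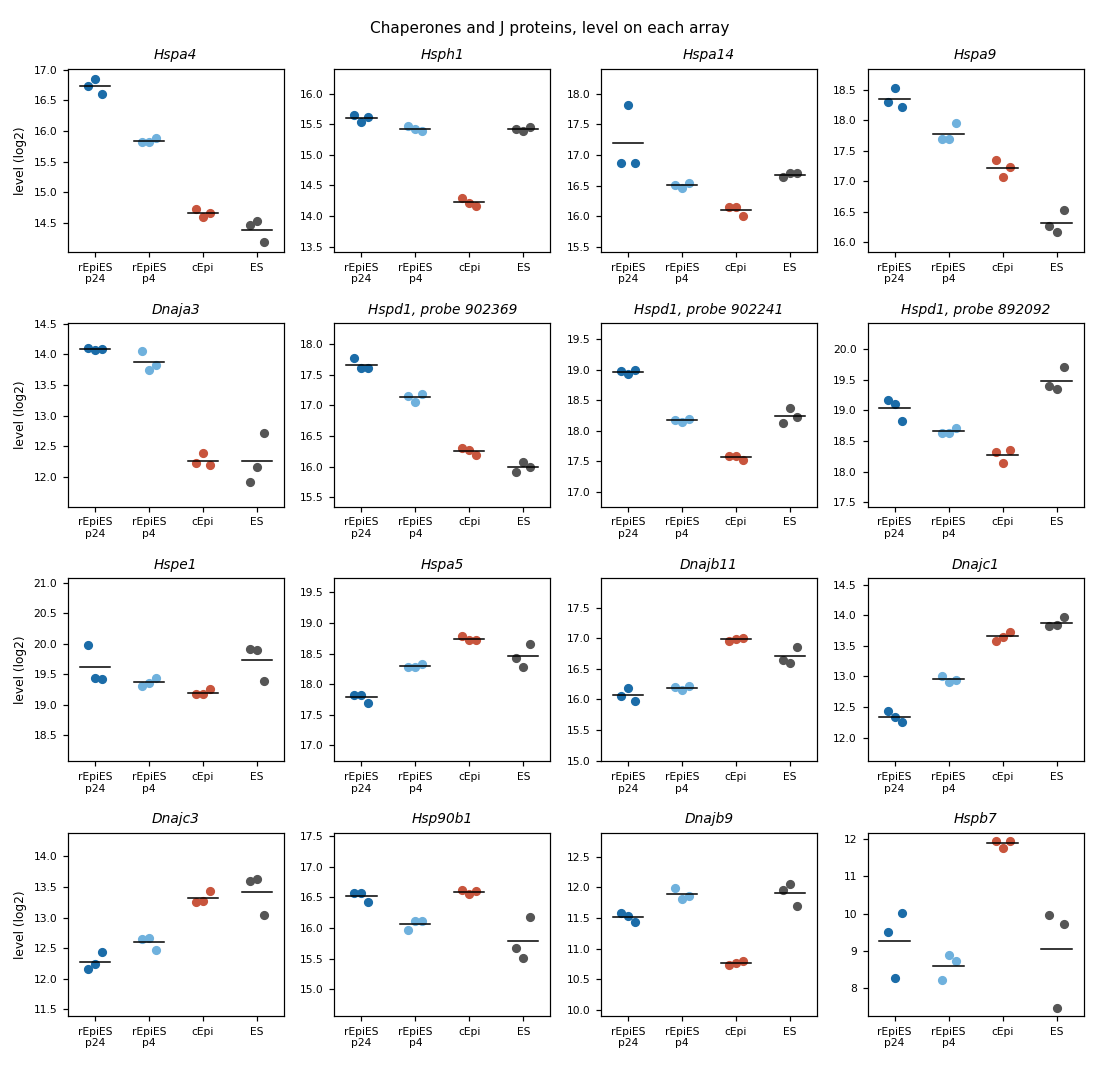
Level of 14 chaperone and J protein genes (16 probes) on each array (points, log2) with the group mean (bar), rEpiES passage 24, rEpiES passage 4, cEpi and ES from left to right, each panel spanning at least 3 log2 units. Hspa4, Hspa9 and the Hspd1 probes were higher and Hspa5, Dnajb11, Dnajc1 and Dnajc3 lower in rEpiES passage 24 than in cEpi, the 3 Hspd1 probes differed in where ES lay, and Hspb7 was highest in cEpi.

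Hspb7, Dnajb13, Dnaja4, Hspa2 and Dnajc9 were detected on all 3 arrays in cEpi alone. Hspb7, a small HSP best known from heart muscle, read 9.51, 8.27 and 10.01 in rEpiES passage 24, 8.22, 8.88 and 8.73 in rEpiES passage 4, 11.95, 11.77 and 11.93 in cEpi, and 9.95, 7.48 and 9.74 in ES. It was detected on all 3 cEpi arrays, on 2 of rEpiES passage 24 and on none of rEpiES passage 4 or ES, so that cEpi was at least 9.66-fold over rEpiES passage 4 and at least 6.82-fold over ES. These bounds set the mean of the brighter group against, on each array of the dimmer, the higher of the lowest detected signal and the probe's own signal. Dnajb13, known from cilia and sperm, was detected in cEpi alone and was at least 6.35-fold lower in rEpiES passage 24, at least 5.84-fold lower in rEpiES passage 4 and at least 4.61-fold higher in cEpi than in ES. Dnaja4 was at least 5.29-fold lower in rEpiES passage 24 than in cEpi and at least 4.43-fold higher in cEpi than in ES. Hspa2, the HSP70 best known from testis, was at least 2.46-fold lower in rEpiES passage 24 than in cEpi. Dnajc9 was at least 3.72-fold lower in rEpiES passage 24 than in cEpi. In limma it was not called for cEpi minus ES (adjusted p = 0.0931) or rEpiES passage 4 minus cEpi (adjusted p = 0.121). Hspb6, like the genes above, was tested only because all 3 cEpi arrays detected it, so for these genes a high cEpi level follows in part from the filter and their count supports nothing. Hspb2 and Hspb3 did not pass the filter. Dnajb4, detected on all 3 arrays of cEpi and of rEpiES passage 4, changed by -1.55 ± 0.37 between rEpiES passage 24 and cEpi. Hspb8, detected on all 12 arrays, read 12.85, 12.85 and 12.86 in rEpiES passage 24, 13.53, 13.52 and 13.56 in rEpiES passage 4, 13.62, 13.62 and 13.56 in cEpi, and 13.27, 13.14 and 13.41 in ES, and was lower by 0.68 ± 0.07 at passage 24 than at passage 4 (adjusted p = 6.99e-05). Its partner Bag3, a cochaperone of selective autophagy, averaged 12.81 in rEpiES passage 24, 13.67 in rEpiES passage 4, 15.27 in cEpi and 13.84 in ES. Bag2, an inhibitor of the ubiquitin ligase Stub1, averaged 12.36 in rEpiES passage 24, 13.81 in rEpiES passage 4, 15.74 in cEpi and 14.51 in ES. The fibroblast and endoderm markers given above were highest in the same group.

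Counted by group, the arrays of rEpiES passage 24 all lay above the 9 others for 20 members (14.5% of all tested probes) and below for 8 (12.2%). The rEpiES passage 4 arrays lay above for 2 members (5.06%) and below for 8 (3.35%), and the cEpi arrays above for 12 (22.7%) and below for 16 (18.2%). The ES arrays lay above for 22 (13.4%) and below for 14 (14%). Hspbap1, named for its partner Hspb1, was next to Hsph1 in how far its cEpi arrays lay below all others. It read 15.91, 15.92 and 16.06 in rEpiES passage 24, 15.10, 15.09 and 15.02 in rEpiES passage 4, 14.12, 14.10 and 14.10 in cEpi, and 15.41, 15.39 and 15.44 in ES. rEpiES passage 24 exceeded cEpi by 1.85 ± 0.06 (adjusted p = 3.77e-09). Dnajc12, a partner of aromatic amino acid hydroxylases, was lower in reprogrammed cells than in both others: it averaged 12.40 ± 0.10 in rEpiES passage 24, 12.31 ± 0.08 in rEpiES passage 4, 13.42 ± 0.06 in cEpi and 13.95 ± 0.14 in ES. Dnajc16 was detected on no ES array and was at least 3.68-fold higher in rEpiES passage 24, 4.64-fold higher in rEpiES passage 4 and 2.78-fold higher in cEpi than in ES.

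The wider pathway was taken from lists of genes that are not members. Of 13 tested assembly, shuttle and deubiquitinase genes of the proteasome, 7 were called higher and 1 lower in rEpiES passage 24 than in cEpi (33.3% and 32.9% of all tested probes), and 3 higher and 8 lower in cEpi than in ES (36.6% and 29.6%). The shuttle factors Rad23b and Ubqln2, which carry ubiquitinated proteins to the proteasome, moved in opposite directions. Rad23b averaged 16.07 ± 0.07 in rEpiES passage 24, 16.00 ± 0.06 in rEpiES passage 4, 14.95 ± 0.06 in cEpi and 15.14 ± 0.27 in ES. Ubqln2 averaged 13.02 ± 0.04 in rEpiES passage 24, 13.80 ± 0.06 in rEpiES passage 4, 14.87 ± 0.10 in cEpi and 16.09 ± 0.21 in ES. Of 26 tested cochaperones, 9 were called higher and 10 lower in rEpiES passage 24 than in cEpi, with a median of -0.05, and of 6 tested ubiquitin and activating enzyme genes 2 were called higher and 2 lower. Both lie near the 33.3% and 32.9% of all tested probes.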

How the data were processed

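Digoxigenin-labelled cRNA was made from Trizol-extracted RNA, per the labels' protocols. Each deposited file gives, per the file headers, a linear intensity of each probe, a signal-to-noise score of each probe and a quality code. It also holds log2 values that the authors had quantile-normalised across the 12 arrays, per the file headers. No source used here names the scanner software. The signal-to-noise and code columns carry exchanged headers in the cEpi and rEpiES passage 4 files and were read by their contents.

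The log2 values were used as deposited. Probes were tested in 1 limma fit (version 3.58.1, R 4.3.3) over the 12 arrays with group as the only term, empirical Bayes moderation and Benjamini-Hochberg adjustment over all 15235 tested probes. Filter and threshold are given above, and the number of arrays limits the precision. The fitting steps were tested on simulated data. Of the 33012 probes, 14411 have 1 gene symbol, 247 several and 18354 none. Promoter windows were read from a RefSeq table. The members and gene lists were chosen with earlier results of these data known. Named members were drawn from a list of anchors of each machine and, in each comparison, the 5 largest called rises and falls. Not all anchors are given by value. Psma5, Psmb3, Psmd5, Dnajb11, Hspa13, Hspa4l, Dnajc15 and the genes outside the member rule were named after their values were seen, as were other members given only by values. Alternatives were other scalings, other detection filters, a fit of each pair of groups, a replicate block, array weights, leaving out probes with quality codes over 5000, and leaving out each array.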

Additional observations from a re-analysis of the deposited data

Results flagged for a closer look

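The Dnajc27 probe, left out of the members, averaged 17.46 ± 0.05 in rEpiES passage 24, 8.85 ± 0.37 in rEpiES passage 4, 9.49 ± 0.96 in cEpi and 8.78 ± 0.59 in ES (log2, SD, n = 3 each). It drew attention as a signal in data outside the comparisons that lay far above the ES arrays. It was detected on all 3 rEpiES passage 24 arrays, on 1 cEpi array and on none of rEpiES passage 4 or ES. No explanation was tested.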

How the results depend on the processing

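Scaling mattered most. Of all called probes, the share higher was 55.3% for cEpi minus ES, against 82.3% with median centring and 86% with no step between arrays. The same 3 shares were 50.3%, 39% and 29.7% for rEpiES passage 24 minus cEpi, 50.1%, 31.5% and 20.1% for rEpiES passage 4 minus cEpi, 51.4%, 75.9% and 73.1% for rEpiES passage 24 minus ES, and 52.9%, 80.5% and 76.7% for rEpiES passage 4 minus ES. With median centring and with no step, members called higher numbered 21 and 10 for rEpiES passage 24 minus cEpi, 8 and 6 for rEpiES passage 4 minus cEpi, 48 and 49 for cEpi minus ES, and 9 and 6 for rEpiES passage 24 minus passage 4. Members called lower numbered 35 with no step for rEpiES passage 4 minus cEpi, and with the 2 scalings 5 and 5 for rEpiES passage 24 minus ES, 11 and 11 for rEpiES passage 4 minus ES, 8 and 5 for cEpi minus ES, and 4 and 2 for rEpiES passage 24 minus passage 4. With no detection filter, 14 members were higher for rEpiES passage 4 minus cEpi and 9 for rEpiES passage 24 minus passage 4. Without 1 array at a time, higher and lower calls ranged 30 to 37 and 20 to 22 for rEpiES passage 24 minus cEpi, 18 to 27 and 16 to 22 for rEpiES passage 4 minus cEpi, 24 to 26 and 26 to 32 for rEpiES passage 24 minus ES, 18 to 23 and 31 to 34 for rEpiES passage 4 minus ES, 24 to 29 and 27 to 33 for cEpi minus ES, and 14 to 34 and 7 to 11 for rEpiES passage 24 minus passage 4. The causes were not tested. Changes in the opposite direction to that reported had these log2 values. For rEpiES passage 4 minus cEpi with median centring it was Psme3 -0.0035. For rEpiES passage 24 minus ES with median centring they were Psmb4 0.33, Psmb7 0.081, Psmb8 0.019, Cct4 0.14, Dnajb9 0.11, Psme2 0.13, Hspb8 0.035, Psmd5 0.052 and Psma5 0.10. For rEpiES passage 4 minus ES with median centring they were Psmc4 0.034, Psma4 0.029, Psmb4 0.015, Cct8 0.14 and Dnajb9 0.46. For cEpi minus ES with median centring they were Psmc1 0.059, Psmc2 0.044, Psmc4 0.34, Psmc5 0.44, Psmc6 0.12, Psmb4 0.32, Dnajc1 0.47, Dnajc12 0.16, Dnajc3 0.63 and Psme3 0.26. For rEpiES passage 24 minus cEpi with no step between arrays they were Psma7 -0.0027, Cct2 -0.053 and Psmb3 -0.036. For rEpiES passage 4 minus cEpi with no step between arrays they were Psma4 -0.13, Psmb5 -0.0597, Cct7 -0.096, Cct8 -0.0504, Tcp1 -0.045, Psme3 -0.21, Psma5 -0.38 and Dnajc15 -0.16. For rEpiES passage 24 minus ES with no step between arrays they were Psmb7 0.021, Cct4 0.078, Dnajb9 0.046, Psme2 0.068 and Psma5 0.043. For rEpiES passage 4 minus ES with no step between arrays they were Cct8 0.069 and Dnajb9 0.39. For cEpi minus ES with no step between arrays they were Psmc1 0.19, Psmc2 0.17, Psmc4 0.46, Psmc5 0.57, Psmc6 0.25, Psma4 0.087, Psmb4 0.45, Psmb7 0.51, Cct4 0.044, Cct8 0.12, Dnajc1 0.59, Dnajc12 0.29, Dnajc3 0.76, Hspa14 0.0086, Psme3 0.39, Dnajc15 0.0100 and Trap1 0.082. Same-numbered arrays did not deviate together (r of -0.0346 to 0.0373), and with a replicate block 438 changes of named genes kept their side of the threshold, 11 lost their call and 1 gained one. Under the fit of each pair of groups 28 of these lost their call and 19 gained one, with array weights 17 and 21, and without high quality codes 0 and 4. Probes near background, 3 arrays a group and the wider spread of the ES arrays limit small differences.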
